A study of Homo sapiens with 4 samples.

Results

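The baseline transcriptome of Daoy cells was described from the 3 libraries labelled wild type, out of 4 RNA-seq libraries in the series. Daoy is an established cell line grown from a human medulloblastoma, a tumour of the cerebellum. The libraries were chosen by their titles alone, and the other library, from cells with a short hairpin RNA against ARID1B, entered no comparison. Per the labels, all libraries came from cultures given doxycycline at 1 µg/ml for 72 h, the drug that switches on the lentiviral hairpin vector used in the study. The series names vector-only and parental cells as its controls, and the labels do not tell which wild-type library is which. The hairpin populations are described as polyclonal, and for the controls nothing is said of clones. Nothing in the labels says that the 3 libraries came from separate cultures, so the spread given here is that between libraries and may be technical. They are called library 1, 2 and 3 after the numbers in their titles, and values are given in that order.

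Medulloblastomas are sorted into WNT, SHH, Group 3 and Group 4 subgroups by their RNA and DNA methylation profiles. The SHH subgroup is thought to arise from granule cell precursors, which divide in response to Sonic hedgehog and carry the transcription factor ATOH1. Cells kept in culture on plastic often take up a mesenchymal profile, with fibronectin, collagens and vimentin, whatever tissue they came from.

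Each library was a count of single reads of 100 nucleotides from poly(A) RNA per gene. The libraries held 12619786, 13228587 and 15390106 reads in genes. Levels are given as CPM, the count divided by the total of reads in genes and multiplied by 1000000, and comparisons of level between genes as CPM per kilobase of the longest annotated transcript. At these depths 3 reads, the floor used for a gene without reads, are worth 0.238, 0.227 and 0.195 CPM. ARID1B itself, the gene the study lowered elsewhere, was at 168, 86.1 and 72.8 CPM in the 3 controls. Library 1 thus held 1.95 times the ARID1B level of library 2 and 2.30 times that of library 3, and it also stood apart in the inflammatory genes described below.

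Control Daoy cells had 9210 genes at 10 CPM or more in all 3 libraries. Of these, 8890 (96.5%) were protein-coding, which is 46.2% of the 19263 protein-coding genes in the files. A further 136 were annotated pseudogenes and 104 were long non-coding RNAs. At the upper end 1950 genes were at 100 CPM or more in all 3 libraries, and 49 at 1000 CPM or more. At the lower end 6047 protein-coding genes stayed below 1 CPM in all 3 libraries, and 2533 had no read in any of them. Another 1130 genes passed 10 CPM in some libraries but not in all. The 10 genes with the highest mean CPM held 8.63% ± 0.723 of reads (SD, n = 3), and the 1000 highest held 50.7% ± 0.542.

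The gene with the most reads was FN1, which encodes fibronectin, a glycoprotein of the extracellular matrix, at 19329.5, 26209.9 and 24116 CPM. It alone took 2.32% ± 0.353 (SD, n = 3) of all reads in genes. EEF1A1, the elongation factor that brings aminoacyl-tRNA to the ribosome, was at 9780.3, 9621 and 8962 CPM. TGFBI, a secreted matrix protein induced by TGF-beta, was at 7773, 6753 and 6621 CPM. Each of these 3 genes varied by at most 1.36-fold (FN1) between libraries. The remaining protein-coding genes among the 15 highest by CPM were ACTB, COL6A3, HSP90AB1, ENO1, PKM and GAPDH: a cytoskeletal actin, a collagen VI chain, a heat shock chaperone and glycolytic enzymes. Their means lay between 2909.8 (GAPDH) and 3431 CPM (ACTB).

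The other 6 of these 15 genes were nuclear pseudogenes that resemble mitochondrial genes. MTCO1P12, a copy of the gene for cytochrome oxidase subunit I, was at 12374, 13488 and 13451 CPM. In contrast, all 13 mitochondrially encoded mRNAs were listed at 0 in every library. The 389 annotated copies of this kind together held 3.98%, 4.88% and 4.79% of reads. Reads from mitochondrial transcripts and from such near-identical copies cannot be told apart in these files, so no level is given for the mitochondrial mRNAs. Reads listed under the 389 copies came to 4.55% ± 0.499 (SD, n = 3) of reads in genes. Reads that were assigned to no gene are not in this share, so it is no total for mitochondrial transcripts and copies.

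On the scale of CPM per kilobase, which allows levels of different genes to be compared, FN1 had the highest mean among protein-coding genes, at 2108, 2858 and 2629.6. EEF1A1 was the next, at 2202, 2166 and 2018 CPM per kilobase. In library 1 EEF1A1 lay above FN1 and in libraries 2 and 3 below it, so the order of the 2 genes was within the spread of the libraries. Per kilobase of all annotated exons combined, EEF1A1 was above FN1, with means of 1590 and 1341 CPM per kilobase. Per kilobase of the longest transcript RPS18, GAPDH, ACTB and TGFBI followed, with means of 1512 (TGFBI) to 1571 (RPS18) CPM per kilobase, which differed by less than their SDs of 89.5 to 258. The list of 15 ended with TMSB10, CCL2, NPM1 and VIM. CCL2, a chemokine that attracts monocytes, was the only 1 of the 15 with a wide spread between libraries, at 351, 1835 and 886 CPM per kilobase. The plot of these 15 genes shows CCL2 spanning a 5.22-fold range, whereas the other 14 spanned at most 1.41-fold (ACTB).

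**Figure D1:**
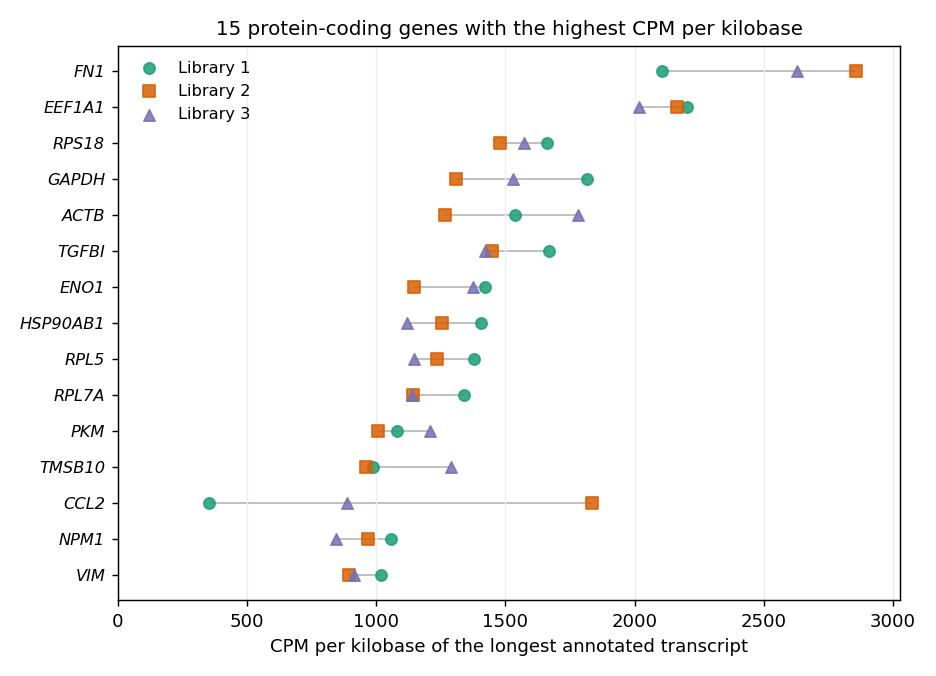
CPM per kilobase of the longest annotated transcript (linear axis from 0) for the 15 protein-coding genes with the highest mean. Each symbol is 1 library (circle, library 1; square, library 2; triangle, library 3), and the grey line joins the lowest and the highest. FN1 lies highest on average, and CCL2 is lowest in library 1 and highest in library 2.

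The lineage profile was led by mesenchymal genes. Of 31 fibroblast and mesenchyme markers, 27 were at 10 CPM or more in all 3 libraries, 16 of them at 100 CPM or more, and none was below 1 CPM in all 3. Among all protein-coding genes the share at 10 CPM or more was 46.2%. COL1A1 and COL1A2, the chains of type I collagen, were at 1696, 1640.5 and 2990.3 CPM and 1940.3, 1243 and 2046 CPM. COL3A1, the chain of type III collagen, was at 1377, 640.2 and 625 CPM, with library 1 at 2.15 and 2.20 times the others. SPARC, a collagen-binding matrix protein, was at 649.8, 720.3 and 575 CPM. The mesenchymal cadherin gene CDH2 was at 145, 196 and 165 CPM. Among transcription factors of the epithelial-mesenchymal transition ZEB1 was at 44, 57.2 and 51.7 CPM and TWIST1 was at 17.7, 19.2 and 19.2 CPM.

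Other members of the mesenchyme list differed between the libraries. DCN, a small proteoglycan of connective tissue, was at 0.317, 29.1 and 6.82 CPM, or 4, 385 and 105 reads, so it was near the floor in library 1. LUM, a related proteoglycan, was at 22.2, 127 and 24.2 CPM and was high in library 2 alone. PDGFRB, a receptor of mesenchymal and mural cells, was also highest in library 2, at 39.1, 100.2 and 33.7 CPM. ZEB2 was lowest in library 1, at 43.5, 141 and 90.3 CPM. In all, 8 of the 29 mesenchyme members with a mean of 10 CPM or more had a highest-to-lowest ratio of 2 or more. Over all 9436 protein-coding genes with such a mean, 703 (7.45%) had that ratio. In 2 of the 29 mesenchyme members the lowest library was under 10 CPM.

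Across the genome 44 collagen chain genes were measured. Of these 17 were at 10 CPM or more in all 3 libraries, 11 of them at 100 CPM or more, and 13 were below 1 CPM in all 3. Collagen chains took 1.11%, 0.957% and 1.42% of reads, so library 3 had the largest share. COL6A3 was at 3283, 2999 and 3972 CPM, and COL6A1 was at 649, 686 and 1272 CPM. With FN1 and TGFBI included, these matrix genes made up 4.19% ± 0.344 (SD, n = 3) of reads.

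Markers that separate the medulloblastoma subgroups were mostly low. Of 22 genes from lists used for subgroup assignment, 4 were at 10 CPM or more in all 3 libraries, 5 were below 1 CPM in all 3, and 2 had no read. From the SHH list SFRP1, a secreted WNT inhibitor, was at 87.8, 88.2 and 103 CPM. PDLIM3, a cytoskeletal adaptor, was at 40.6, 22.9 and 42.9 CPM. EYA1 was at 12.7, 8.24 and 9.03 CPM, HHIP at 6.34, 3.17 and 3.25 CPM, and ATOH1 had no read, which allows up to 0.238, 0.227 and 0.195 CPM. From the WNT list only TNC, the matrix glycoprotein tenascin C, passed 10 CPM, at 979, 1725 and 1409 CPM. WIF1 was at 0.634, 0.529 and 0.260 CPM and DKK2 at 0.317, 0.454 and 0.390 CPM. None of the 6 Group 3 genes reached 10 CPM in all 3 libraries, and of 6 Group 4 genes only OAS1 did, an interferon-induced enzyme, at 39, 43.7 and 57.3 CPM. TNC is also a gene of matrix and OAS1 of the interferon response, and why these 2 passed was not tested.

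Genes of the granule cell lineage were present in part. Of 22, 6 were at 10 CPM or more in all 3 libraries, 8 were below 1 CPM in all 3, and 4 had no read. PAX6, a homeobox factor of granule cell precursors, was at 22.3, 20.4 and 26.5 CPM. ZIC1, a zinc finger factor of the same cells, was at 18.1, 12 and 16 CPM. MEIS2, another homeobox gene, was at 79.6, 44.1 and 50.2 CPM, and RELN, the gene for the secreted glycoprotein reelin, was at 14.7, 13.8 and 13.6 CPM. ATOH1, BARHL1, NEUROD2 and the granule cell GABA receptor gene GABRA6 had no read in any library, and NEUROD1 was at 0.475, 0.302 and 0.325 CPM.

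Markers of the other neural types were largely low or absent. Of 15 Purkinje and GABAergic markers 1 reached 10 CPM in all 3 libraries, ITPR1, an intracellular calcium channel found in many cell types. CALB1, the calcium-binding protein that marks Purkinje cells, was at 0.872, 0.151 and 0.585 CPM. No member of 16 isthmus and midbrain factors passed in all 3 libraries. EN1, which patterns the midbrain and hindbrain, passed 10 CPM in libraries 1 and 3 alone, at 11.3, 7.48 and 10.7 CPM. OTX2, a factor of the midbrain and of the Group 3 and Group 4 tumours, was at 7.61, 4.69 and 5.26 CPM.

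Among 22 neural stem and progenitor genes 8 were at 10 CPM or more in all 3 libraries. VIM, the mesenchymal and progenitor intermediate filament, was at 2713, 2389 and 2435 CPM. The SOX factors differed, with SOX4 at 88.4, 72.9 and 69.5 CPM, SOX11 at 57.1, 62.4 and 63.1 CPM and SOX9 at 42.3, 29.9 and 46.5 CPM. SOX2, which maintains neural stem cells, was at 6.89, 3.86 and 5.07 CPM, and NES, the progenitor filament nestin, at 4.60, 4.01 and 5.0 CPM. PROM1, which encodes the surface marker CD133, was below 1 CPM throughout, at 0.792, 0.605 and 0.715 CPM. HES5 and NEUROG1 had no read.

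Mature neuronal genes were represented by 2 of 20, ENO2 at 66.8, 83.6 and 90.3 CPM and SYT1 at 12, 13 and 12.6 CPM. ENO2 is a glycolytic enolase and SYT1 a calcium sensor of vesicle release. DCX, a microtubule protein of young neurons, was at 0, 0 and 0.0650 CPM and ELAVL3 had no read. TUBB3, the neuronal tubulin, was at 1.58, 0.983 and 2.01 CPM, but 35.8% of its exonic bases lie in exons of another annotated gene, so its count is uncertain. SNAP25, a protein of the vesicle fusion machinery, was at 1.74, 11.9 and 4.61 CPM and thus passed 10 CPM in library 2 alone.

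Glial markers gave the same picture. The 3 of 13 astrocyte genes at 10 CPM or more were CD44, GLUL and GJA1, which many adherent cells express. CD44, the hyaluronan receptor, was at 1089.6, 1838 and 1427 CPM. GFAP, the defining astrocyte filament, was at 0.555, 0.378 and 0.260 CPM. In the oligodendrocyte lineage 3 of 14 passed, among them CNP at 119, 73.7 and 117 CPM, whereas SOX10 was at 0.0792, 0 and 0 CPM and MAG had no read. Of 16 neural crest and melanocyte genes 4 passed, ETS1, SNAI2, TWIST1 and TFAP2A, whereas TYR, the enzyme of melanin synthesis, had no read.

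Markers of non-neural cell types other than mesenchyme and smooth muscle were also mostly low. In the smooth muscle and myofibroblast list 6 of 12 (50%) passed, near the 46.2% of all protein-coding genes. Of the 12, 3 were at 100 CPM or more in all 3 libraries, among them TPM1 at 498, 688 and 707 CPM, and 1 was below 1 CPM. Members that did not pass include ACTA2 at 8.64, 7.71 and 8.25 CPM and MYH11 at 0.555, 0.605 and 1.10 CPM. In the skeletal muscle list 2 of 17 passed, and MYF5, MYF6 and MYOG had no read. In the epithelial list 3 of 18 passed, DSP, KRT18 and KRT8, of which the keratin gene KRT18 was at 204, 168 and 212 CPM. CDH1, the epithelial cadherin, was at 0.158, 0.0756 and 0.390 CPM. Endothelial genes were represented by 2 of 11, the receptor genes TIE1 at 51.3, 33 and 49.8 CPM and TEK at 16, 14.8 and 17.8 CPM, whereas CDH5 had no read. None of 14 blood and microglia genes passed, 13 were below 1 CPM in all 3 libraries and 7 had no read. In bulk RNA, fewer cells of a type and less RNA per cell cannot be told apart. The plot of lineage lists shows 87.1% of the mesenchymal list at 10 CPM or more.

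**Figure D2:**
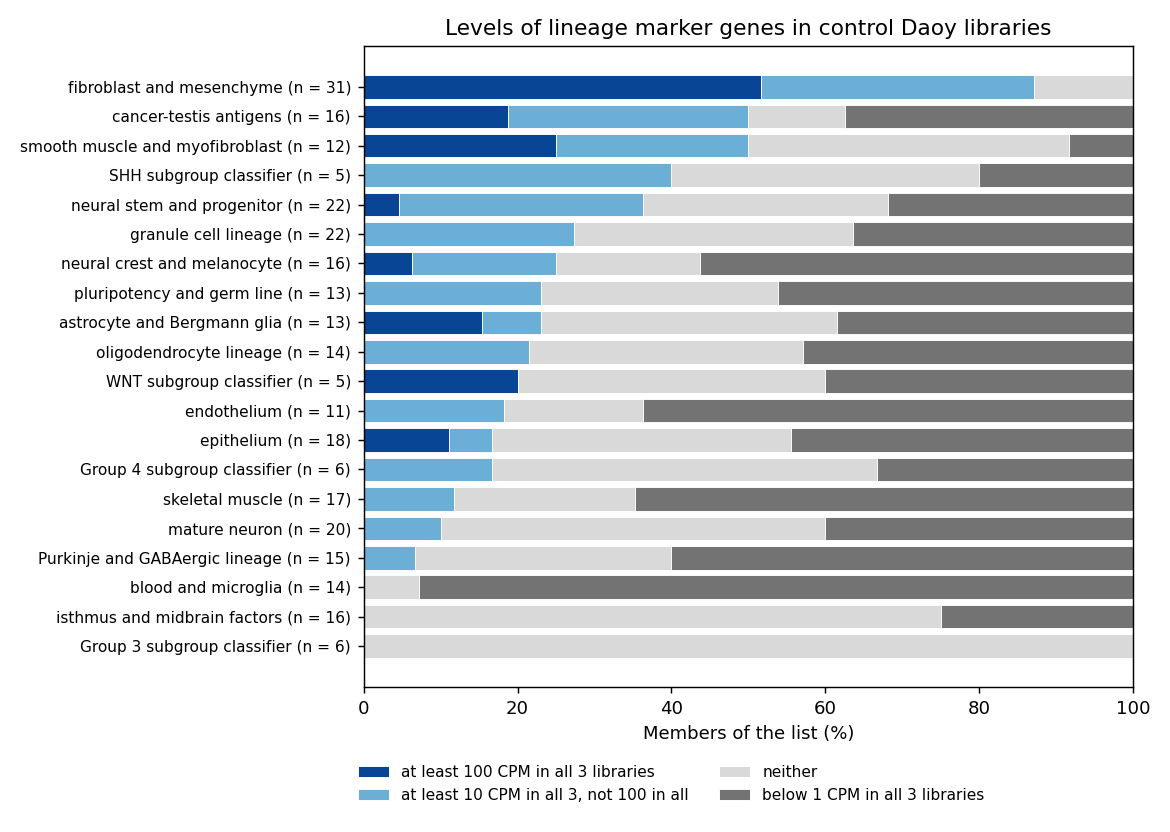
Share of each lineage list (%, with the number of measured members) whose genes were at 100 CPM or more in all 3 libraries, at 10 CPM or more, below 1 CPM in all 3, or none of these. Of the 31 mesenchyme genes 27 lie in the blue classes, while 13 of the 14 blood and microglia genes lie below 1 CPM.

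HOX genes, which set position along the body axis and are largely silent in the forebrain, midbrain and cerebellum, were present from all 4 clusters. Of 39 measured, 13 were at 10 CPM or more in all 3 libraries, and 5 were below 1 CPM in all 3. The share at 10 CPM or more was below the 46.2% of all protein-coding genes. HOXC10, a posterior gene, was at 39.3, 30.9 and 33 CPM. HOXA2, an anterior gene of the hindbrain, was at 31.7, 25 and 26.1 CPM. HOXD10 and HOXD13, at the posterior end of their cluster, were at 20.8, 19.4 and 20.5 CPM and 19.1, 17.8 and 18.9 CPM. The genes at 10 CPM or more in all 3 libraries thus included anterior and posterior paralogues, and HOXB1 had no read. HOXA7, HOXC5, HOXD1, HOXD3 and HOXD4 share 58.1% (HOXD1) to 80.5% (HOXD4) of their exonic bases with other annotated genes, so their low counts are uncertain.

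**Figure D3:**
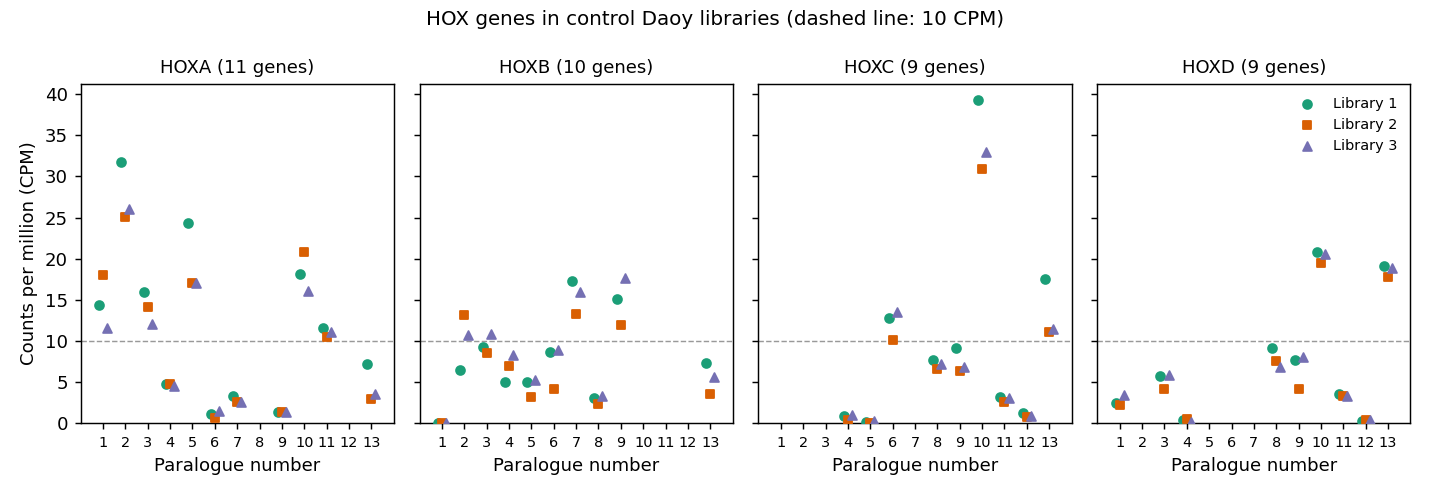
CPM (linear axis from 0) of the 39 measured HOX genes in the 3 libraries, by cluster and by paralogue number from 1 (anterior) to 13 (posterior). The dashed line marks 10 CPM; the 13 genes above it in every library include HOXA2, HOXC10 and HOXD13.

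Genes of the germ line and of early embryos were detected. Of 16 cancer-testis antigen genes, normally limited to the testis and activated in many tumours, 8 were at 10 CPM or more in all 3 libraries. That is 50%, near the 46.2% of all protein-coding genes. MAGEC1 was at 215, 188 and 167 CPM, PAGE5 at 134, 138 and 123 CPM and PRAME at 131, 108 and 102 CPM, all above 100 CPM in every library. Members of the MAGE-A, GAGE and XAGE families have near-identical copies, so their counts, from MAGEA3 at 50.3, 45.4 and 43.6 CPM to XAGE1B with no read, are uncertain. Of 13 pluripotency and germ line genes 3 passed, ZFP42 at 27.5, 46 and 41.5 CPM, DPPA4 at 24.9, 37.2 and 34.1 CPM and LIN28B, a blocker of let-7 maturation, at 19.9, 37.5 and 32.7 CPM. The core pluripotency gene NANOG had no read and POU5F1 was at 1.74, 1.97 and 2.66 CPM.

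The BAF complexes that ARID1B belongs to exchange subunits when progenitors become neurons. All 4 progenitor-type subunit genes passed 10 CPM in all 3 libraries: SS18, DPF2, ACTL6A and PHF10. ACTL6A was at 113, 107 and 101 CPM. Its neuronal counterpart ACTL6B was at 0.396, 0.227 and 0.195 CPM. SS18L1 was the only 1 of 4 neuron-type genes to pass, at 16.3, 20.5 and 18.5 CPM.

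For the signalling lists that follow, the share of all protein-coding genes at 10 CPM or more in all 3 libraries was 46.2%. Of the Hedgehog pathway the receiving side was present and most genes of the ligand list were low. In that list 1 of 6 genes was at 10 CPM or more in all 3 libraries, and 4 were below 1 CPM in all 3. SHH was at 0.238, 0.605 and 0.780 CPM and IHH at 0.0792, 0 and 0.0650 CPM, and DHH had no read. Among 14 receptor and transducer genes 9 were at 10 CPM or more in all 3 libraries. The transducer gene SMO was at 73, 34.3 and 57.8 CPM and the receptor gene PTCH1 at 42.6, 22.4 and 37 CPM. Both were lowest in library 2 and highest in library 1. The co-receptor gene GAS1 was at 128, 41 and 42.8 CPM and BOC at 57.4, 15.3 and 27.6 CPM, again highest in library 1. Among the GLI transcription factors GLI3, largely a repressor, was at 116, 89.7 and 107 CPM and GLI2 at 8.56, 5.67 and 9.75 CPM. GLI1, an activator and itself a target of the pathway, was at 3.01, 0.605 and 2.14 CPM.

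WNT ligands were represented by 1 of 19 genes at 10 CPM or more in all 3 libraries. This was WNT5A, a ligand that mostly signals without beta-catenin, at 127, 621 and 213 CPM, with library 2 far above the others. WNT1, WNT3A, WNT8A, WNT8B and WNT9B had no read. On the receiving side 10 of 18 Frizzled and co-receptor genes passed, among them LGR4, a receptor of R-spondins, at 409, 311 and 264 CPM. CTNNB1, which encodes beta-catenin, was at 519, 601 and 507 CPM. The feedback target AXIN2 was at 5.71, 4.84 and 5.65 CPM, and NOTUM at 0.238, 0.227 and 0.975 CPM.

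Notch components were represented by NOTCH2 at 529, 510.2 and 510.1 CPM and the ligand gene JAG1 at 31.7, 78.9 and 45.7 CPM, 2 of 9 receptors and ligands. NOTCH3 was at 2.06, 12.9 and 6.82 CPM and passed 10 CPM in library 2 alone. The Notch target HES1 was at 25.8, 30 and 26.4 CPM, with the 3 libraries close.

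In the TGF-beta family 15 of 19 receptor and SMAD genes passed, and 7 of 21 ligand genes. SMAD3, which carries the TGF-beta and activin signal to the nucleus, was at 277, 345 and 317 CPM. TGFBR1, the type I receptor, was at 130.2, 189 and 155 CPM. TGFB1, the best known ligand, was at 64.5, 68.3 and 80.8 CPM. INHBA, which encodes the subunit of activin A, was at 119, 1001 and 219 CPM. That gene stood out by its spread, with library 2 more than 4 times the level of the others. All 17 genes of a TGF-beta response list passed, FN1 and TGFBI among them.

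Of 46 receptor tyrosine kinase genes 20 (43.5%) were at 10 CPM or more in all 3 libraries and 5 below 1 CPM in all 3. That share was near the 46.2% of all protein-coding genes. MET, the receptor of hepatocyte growth factor, was at 409, 321 and 327 CPM. Its ligand gene HGF was at 0.238, 0.0756 and 0.325 CPM. EPHB2, an ephrin receptor, was at 321, 317 and 411 CPM, and EGFR was at 223, 327 and 289 CPM. Of 33 growth factor genes 7 passed, with VEGFA, the main angiogenic factor, at 122, 187 and 189 CPM. IGF1 and IGF2 were low but share 82.4% and 75% of their exonic bases with other annotated genes, so their counts are uncertain.

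Cytokine receptors and JAK-STAT genes were widely present, with 22 of 30 at 10 CPM or more in all 3 libraries. JAK1, a kinase of many cytokine receptors, was at 286, 408 and 365 CPM. IL6ST, the shared receptor chain gp130, was at 197, 422 and 171 CPM. IL7R, a chain of the receptors of interleukin 7 and TSLP that is best known from lymphocytes, was at 107, 269 and 184 CPM. IL13RA2, a decoy receptor of interleukin 13, was at 127, 119 and 116 CPM and differed little between libraries.

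The Hippo output genes formed the signalling list with the largest share present, with 18 of 19 YAP and TEAD genes at 10 CPM or more in all 3 libraries. YAP1, the coactivator held back by the Hippo kinases, was at 145, 155 and 125 CPM. TEAD1, its DNA-binding partner, was at 294, 263 and 276 CPM. The target CCN2 was at 224, 157 and 128 CPM, and ANKRD1, the gene that did not pass, at 6.42, 23.9 and 7.02 CPM.

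Transmitter receptors were few. Among 16 nicotinic acetylcholine receptor genes only CHRNA9 passed, a subunit known from hair cells of the inner ear, at 108, 115 and 126 CPM. The 3 libraries were close, whereas CHRNA10, its usual partner, was at 0.634, 0.907 and 0.715 CPM. Among 27 glutamate, GABA and glycine receptor genes 3 passed, among them GRIN2A at 47.9, 37.6 and 37.8 CPM and GABRA3 at 21.2, 23.2 and 21.4 CPM. GRIN1, the subunit that NMDA receptors require, was at 0.317, 0.378 and 0.325 CPM. Of 47 nuclear hormone receptor genes 18 passed, with NR3C1, the glucocorticoid receptor, at 179.8, 344 and 219 CPM and PPARG at 116, 79.1 and 91.6 CPM.

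Genes of growth control were widely present. CDKN1A, an inhibitor of cyclin-dependent kinases, was at 68.6, 84.9 and 48.3 CPM. In a list of growth control genes of the RB and p53 axis 19 of 23 passed. CDKN2A, which encodes the inhibitors p16 and p14ARF, did not, at 0.0792, 0.227 and 0.260 CPM. The neighbouring inhibitor gene CDKN2B was at 9.03, 20.2 and 8.12 CPM. Among MYC genes, MYC was at 13.6, 16.8 and 16.2 CPM, MYCN at 2.06, 2.95 and 2.47 CPM and MYCL at 1.98, 2.49 and 1.36 CPM. TERT, the catalytic subunit of telomerase, was at 4.28, 3.33 and 6.69 CPM. Of the proliferation lists, 22 of 23 S phase genes and all 24 G2 and M phase genes were at 10 CPM or more in all 3 libraries. MKI67, the gene of the proliferation marker Ki-67, was at 519, 349.9 and 397 CPM, and TOP2A at 1271, 1009 and 804 CPM. Both were highest in library 1.

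The 3 libraries were then compared with each other over the 9436 protein-coding genes with a mean of 10 CPM or more. For the ratios, a count below 3 was raised to 3. The median ratio of the highest to the lowest library was 1.26, and 95% of genes lay below 2.25. A ratio of 2 or more was reached by 703 genes (7.45%) and a ratio of 4 or more by 102 genes (1.08%). Just inside the 4-fold limit lay DUSP10 at 4.01-fold, and just outside lay DACT1 at 3.997-fold. Of the 102 genes, 73 were highest in library 2, 21 in library 3 and 8 in library 1, and all of those 73 were lowest in library 1. The count fell to 17 without library 1, to 43 without library 2 and to 86 without library 3. It was 44 when 10 CPM was required in all 3 libraries, a limit chosen after seeing the data.

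Pair by pair, library 2 was at least 2-fold above library 1 in 276 genes (2.92%) and at least 2-fold below it in 161 (1.71%). Library 3 was above library 1 to that extent in 234 genes (2.48%) and below it in 70 (0.742%). Library 2 was above library 3 in 68 genes (0.721%) and below it in 228 (2.42%). The median log2 ratio over all 9436 genes was -0.08 for library 2 over library 1 and -0.04 for library 3 over library 1.

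Each library was tested against the other 2 with edgeR's quasi-likelihood method over 14703 genes, and the number of calls depended on the filter and the scaling. This design leaves 1 residual degree of freedom and assumes that the lone library varies like the others. The filter on low counts ignored which library was tested. DCN and CCL20, with 4 and 7 reads in library 1, were therefore not tested. Library 1 had 1 call (0.0068%) at a Benjamini-Hochberg adjusted p under 0.05, and libraries 2 and 3 had 0 (0%) each. DESeq2 called more genes than edgeR in each library at the adjusted threshold, so the calls depended on the method too. The gene called by edgeR was ICOSLG, a ligand that costimulates T cells, at 5.86, 89.9 and 81.2 CPM. Its log2 fold change in library 1 against the others was -3.92 (SE 0.31), with an edgeR adjusted p of 0.0277. No gene was called once a trend on GC content and length was removed, although the ratio of the highest to the lowest library for ICOSLG was then 18.5, against 15.3 before. The levels that follow are therefore described without a test.

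The genes with the widest spread were cytokines and chemokines. In the list of 25 cytokine, chemokine and related receptor genes, 15 had a mean of 10 CPM or more, and 12 of these had a ratio of 4 or more. In 11 of the 15 the lowest library was under 10 CPM, so these genes entered the comparison through the libraries where they were high. CXCL8, which encodes interleukin 8, a chemokine that attracts neutrophils, was at 3.72, 891 and 149 CPM. The exact 95% Poisson intervals were 2.74 to 4.95 CPM in library 1 and 875 to 908 CPM in library 2, and they cover counting error only. That is a 239-fold range from 47, 11793 and 2291 reads.

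IL6, a cytokine of the acute-phase response, was at 2.22, 242 and 40.7 CPM, a 109-fold range. CXCL1, a neutrophil chemokine closely related to CXCL8, was at 3.49, 339 and 85.4 CPM. The interleukin 1 genes followed, with IL1B at 1.03, 69.8 and 25.3 CPM and IL1A at 2.61, 98.3 and 20.1 CPM. All of these were lowest in library 1, intermediate in library 3 and highest in library 2. The same order held for CCL20 at 0.555, 28.3 and 6.63 CPM, CXCL2 at 1.35, 61.3 and 17.3 CPM and CXCL3 at 0.872, 28.3 and 7.86 CPM. CXCL1, CXCL2 and CXCL3 are similar in sequence, so reads may be split among them with error. IL11, a cytokine of the IL6 family, differed in shape, with library 2 at 12.8 times library 3, at 2.14, 91.2 and 7.15 CPM. DCN was the only 1 of the 10 widest-ranging genes highest in library 2 that is not a cytokine or chemokine. The blood and microglia markers summed to 4.75, 10.3 and 6.24 CPM over 14 genes, with 7 at 0 and PTPRC, the gene of the leukocyte marker CD45, at 0, 0 and 0.0650 CPM.

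Most of these chemokine and cytokine genes are textbook targets of the transcription factor NF-kappaB, which binds short GC-flanked motifs in their promoters. The 100 bases before the RefSeq start of 6 of the 10 genes are shown, because these hold a match to the NF-kappaB-type motif GGNNTTTCC, in capitals. The motif was chosen after the gene list was seen, and both strands were searched over the 250 bases before each start. Coordinates are those of build GRCh38.p14.
CXCL8: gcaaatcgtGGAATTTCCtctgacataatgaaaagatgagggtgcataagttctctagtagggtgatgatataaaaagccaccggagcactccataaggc
IL6: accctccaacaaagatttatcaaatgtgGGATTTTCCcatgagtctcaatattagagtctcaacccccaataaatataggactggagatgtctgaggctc
CXCL1: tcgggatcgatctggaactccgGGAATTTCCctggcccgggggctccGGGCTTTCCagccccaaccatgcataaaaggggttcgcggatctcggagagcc
CCL20: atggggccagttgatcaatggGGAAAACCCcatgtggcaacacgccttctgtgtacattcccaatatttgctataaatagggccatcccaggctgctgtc
CXCL2: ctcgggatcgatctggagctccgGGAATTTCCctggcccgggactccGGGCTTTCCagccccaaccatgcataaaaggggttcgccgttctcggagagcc
CXCL3: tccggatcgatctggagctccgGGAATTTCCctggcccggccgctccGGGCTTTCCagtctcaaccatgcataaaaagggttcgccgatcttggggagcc
These stretches lie at chr4:73740469-73740568 (plus strand), chr7:22727100-22727199 (plus), chr4:73869293-73869392 (plus), chr2:227813742-227813841 (plus), chr4:74099196-74099295 (minus) and chr4:74038690-74038789 (minus), in that order. The match of CCL20 reads on the opposite strand, and the others read along the gene. CXCL1, CXCL2 and CXCL3 hold 2 matches each that do not overlap. Of the 9 genes among these 10 with a RefSeq promoter, 6 hold the motif, and IL1A, IL1B and IL11 do not. Over all 27305 genes with a promoter entry 6.69% hold it, and 8.51% of the 7853 compared protein-coding genes with an entry. The motif was picked with these genes in view, so their share is no support for it, and the matches are letters in a window that are not shown to be bound.

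A list of subunits, regulators and known targets of NF-kappaB, which includes CXCL8, CXCL1, CXCL2, CXCL3, CCL20, IL6, IL1A and IL1B, was chosen after the values had been seen, so the counts that follow are a description of chosen genes. Of the 39 listed genes found in the count table, 33 had a mean of 10 CPM or more, and in 12 of the 33 the lowest library was under 10 CPM. Their median log2 ratio over library 1 was 2.77 for library 2 and 2.13 for library 3, and since the genes were chosen for such values nothing is read from it. SOD2, the mitochondrial superoxide dismutase, was at 329, 4507 and 2358 CPM. TNFAIP3, which encodes A20, an inhibitor of NF-kappaB signalling, was at 39, 304 and 177 CPM, and NFKBIA, the inhibitor IkappaB-alpha, at 90.4, 329.6 and 246 CPM. PTGS2, the inducible cyclooxygenase, was at 15.2, 402 and 59.8 CPM. Library 1 was the lowest for each of them. The subunit genes differed among themselves. NFKB2 was at 23.6, 79 and 88.9 CPM and RELB at 8.64, 28.4 and 29.6 CPM, both lowest in library 1 and highest in library 3. NFKB1 was at 47.6, 108 and 83.4 CPM, REL at 14.6, 23.2 and 15.7 CPM and RELA at 55.5, 58.8 and 68 CPM.

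Library 1 held the highest level of a second, smaller set of genes. SEMA3E, a secreted axon guidance protein, was at 43.8, 4.38 and 6.89 CPM. MGP, an inhibitor of calcification in matrix, was at 93.4, 17.9 and 15.9 CPM, and PDE5A, a phosphodiesterase of cyclic GMP, at 61, 8.84 and 14 CPM. Libraries 2 and 3 were both well below library 1 for these. The 10 genes with the widest range in this direction, which included SESN3, SDC3 and CRABP2, had ratios of 3.87 (PLIN4) to 9.99 (SEMA3E).

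Library 3 was highest for another set. MT2A, a metallothionein that binds zinc and copper, was at 13.6, 41.4 and 106 CPM. In the metallothionein list, which includes the zinc exporter SLC30A1, 3 of 11 genes were at 10 CPM or more in all 3 libraries, and 4 entered the comparison. MT1E was at 14.2, 54.5 and 58.2 CPM and MT1X at 4.44, 17.5 and 20.9 CPM, with library 1 lowest and libraries 2 and 3 close. The heat shock gene HSPB1 was at 11.5, 5.29 and 33.1 CPM. ISG15, a ubiquitin-like protein induced by interferon, was at 6.02, 5.22 and 30.2 CPM, with libraries 1 and 2 close. PKP1, a desmosome protein, was at 4.75, 24.2 and 37.2 CPM.

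The genes high in library 3 were GC-rich. Median GC content was 61.9% over the 287 genes with a ratio of 2 or more that were highest in library 3, against 46.8% over all 9436 genes. It was 45.6% over the 248 such genes highest in library 2 and 52.6% over the 168 highest in library 1. After a smooth trend on GC content and length was removed from each library, 63 of those 287 were still highest in library 3 with a ratio of 2 or more. The same count was 228 of 248 for library 2 and 115 of 168 for library 1. HSPB1 went from 6.26-fold to 3.64-fold with the trend removed, ISG15 from 5.79-fold to 3.78-fold, and MT2A from 7.85-fold to 7.31-fold. CXCL8 went from 239-fold to 196-fold. GAL and MSC were highest in library 2 once the trend was removed.

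**Figure D4:**
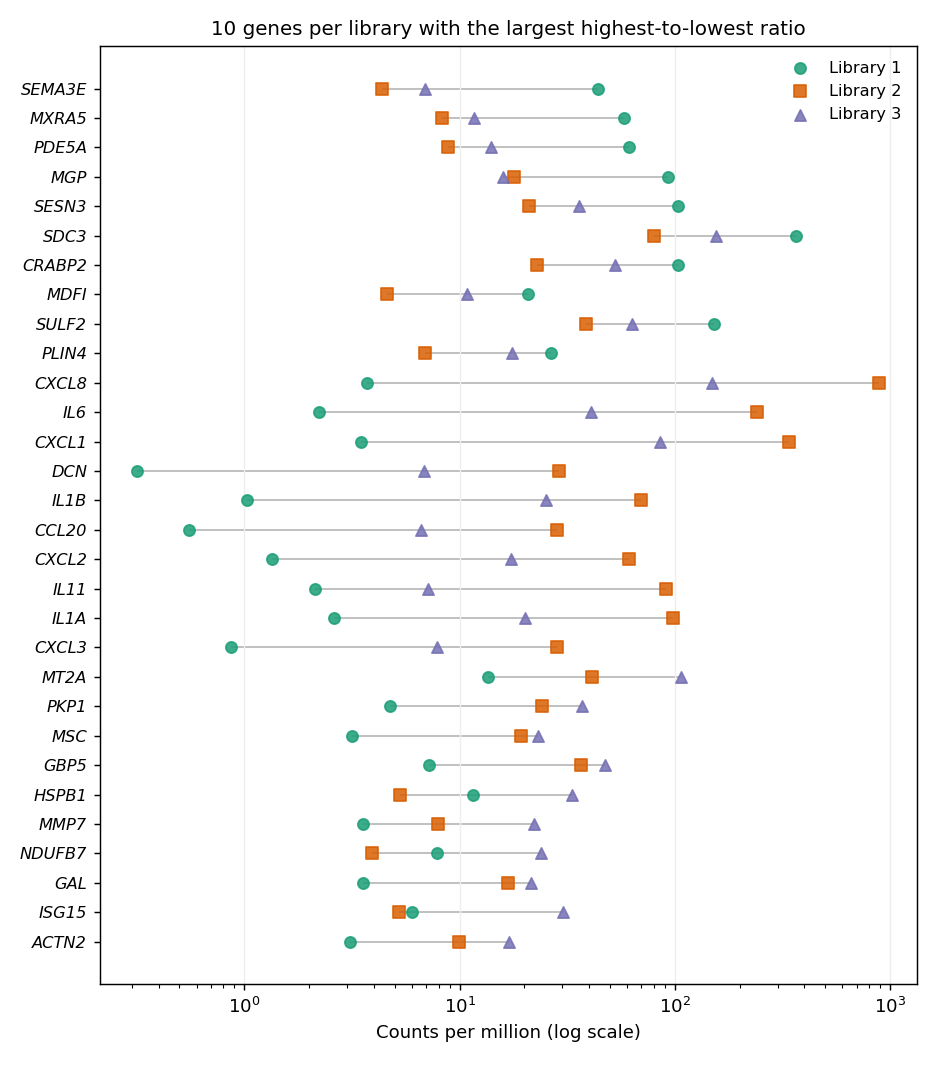
CPM (log axis) in each library for the 10 protein-coding genes with the largest ratio of highest to lowest library, shown in turn for genes highest in library 1, in library 2 and in library 3. CXCL8 has the widest range, from 3.72 CPM in library 1 to 891 CPM in library 2.

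Apart from the NF-kappaB list, which was chosen for its values, the pathway and programme lists with at least 5 compared genes and the largest median difference above library 1 were those of cytokines, growth factors, interferon and MAPK output. For interferon-stimulated genes 22 of 24 entered the comparison, 3 of them with a library under 10 CPM, and had a median log2 ratio of 0.61 for library 2 and 0.97 for library 3 over library 1. IFI44 was at 191, 455 and 359 CPM and IFIT3, an antiviral protein, at 109, 260.0 and 232 CPM. Library 1 was the lowest for both. For genes of MAPK feedback and output, 17 of 19 entered, 3 of them with a library under 10 CPM, and had medians of 0.91 and 0.61. IL11, described above among the genes of widest range, is a member of this list. DUSP6, a phosphatase of ERK, was at 57.6, 133 and 111 CPM, and CCND1, cyclin D1, at 79.1, 212 and 121 CPM. Growth factor ligands had medians of 1.02 and 0.46 over 12 of 33 genes, of which 5 had a library under 10 CPM. HBEGF, an EGF receptor ligand and 1 of those 5, was at 4.52, 19.9 and 12.1 CPM. In each of these lists some genes entered through the libraries where they were high. For that reason nothing is read from these medians or from the order of the lists.

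For library 2 over library 1, the largest median difference in the other direction was that of Hedgehog receptors and transducers, at -0.93 for library 2 and -0.32 for library 3 over library 1 in 9 of 14 genes. After removal of the GC and length trend these medians were -0.75 and -0.49. The G2 and M phase list had medians of -0.35 and -0.38, with all 24 genes compared and none at a 2-fold ratio. For the S phase list they were -0.09 and -0.12, near the median of all genes. The part of cell cycle state, of ARID1B level and of vector or parental origin in these differences was not tested, and origin cannot be told apart from the libraries. The plot of list medians shows cytokines and chemokines far from the other lists plotted, which do not include the NF-kappaB list. In 11 of the 15 compared cytokine and chemokine genes the lowest library was under 10 CPM. Those genes entered through the libraries where they were high, so nothing is read from the distance of this list.

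**Figure D5:**
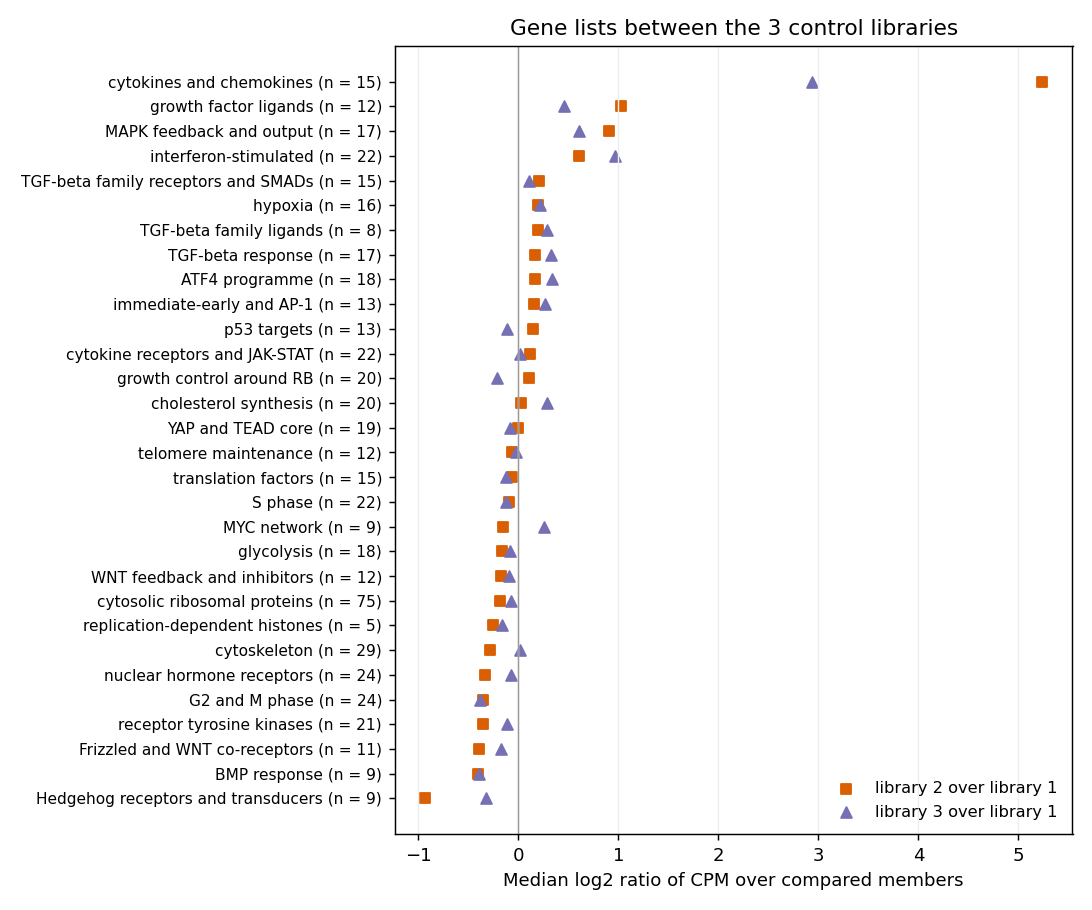
Median log2 ratio of CPM of library 2 (squares) and library 3 (triangles) over library 1, for each signalling, machinery and programme list with at least 5 compared genes (number in parentheses). Cytokines and chemokines lie at 5.23 and 2.94, and Hedgehog receptors and transducers at -0.93 and -0.32. Of the 15 cytokine and chemokine genes, 11 had a library under 10 CPM and entered through the libraries where they were high.

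At the other extreme, some genes were nearly level across the libraries. Among protein-coding genes with a mean of 50 CPM or more, POLA2, a subunit of the DNA polymerase alpha complex, was at 59.5, 59.3 and 59.4 CPM. HDGF, a growth factor that also binds chromatin, was at 929, 920.1 and 923 CPM and CAPZB, which caps actin filaments, at 381, 380.2 and 376 CPM. The 10 most level genes had ratios up to 1.01. After trend removal their ratios ranged from 1.07 to 1.21, so this order depends on the scaling.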

How the data were processed

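The deposited values were read counts per gene made by the authors, 1 file per library, without normalization, from 100-nucleotide single reads per the labels' protocols. The tools named in the submitters' processing notes are bcl2fastq, HISAT2, HTSeq and DESeq2, and the build named there is GRCh37 (hg19). How HTSeq was set for strand and overlaps, and which gene annotation it read, is not given in the sources used here; overlapping and antisense genes are therefore uncertain. The 5 summary lines that name no gene were left out; ambiguous reads came to 6.59% ± 0.157 (SD, n = 3) of reads in genes. Of 57820 identifiers 52338 (90.5%, with 99.3% of reads) matched GENCODE v29 of GRCh38, which gave symbols, types, lengths, GC content and exon overlap. Promoters are RefSeq's. Because builds differ, no other coordinates are given.

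Counts were divided by library totals to CPM, and 3 libraries bound every mean. Depth was 12619786 to 15390106 reads in genes. The 64 gene lists (1134 different genes, 11 unmatched), 1 further list for NF-kappaB and the genes described were chosen with earlier results of these data known. Named genes are the 15 highest by CPM and by CPM per kilobase, list members, the 10 with the largest ratio for each highest library, the 10 most level and called genes; some list members are not reported here. Each library was compared with the other 2 by edgeR 4.0.16 in R 4.3.3 (TMM, filterByExpr, robust quasi-likelihood, Benjamini-Hochberg, 0.05). On simulated counts over 14703 genes, with library 1 against the others and a dispersion of 0.02, edgeR recovered 99% of 100 genes changed 4-fold and 84% of 100 changed 16-fold, with 10 false calls; 183 of the changed genes passed the filter. That dispersion was set for all genes alike and was not estimated from these libraries. The recovery on simulated counts therefore does not tell what share of changed genes the test would find here. Alternatives were TMM, RLE and DESeq2 1.42.0, other filters, removal of a GC and length trend (loess, span 0.3) and leaving out each library.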

Additional observations from a re-analysis of the deposited data

How the results depend on the processing

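The number of genes at 10 CPM or more in all 3 libraries was 9210, and 9222 to 9522 with the totals scaled otherwise. With 1 library left out it was 9300 to 9502, and 9809 genes had a mean of at least 10 CPM. With other limits in all 3 libraries, 10823 genes were at 5 CPM or more and 7167 at 20 CPM or more. The number of protein-coding genes with a ratio of 4 or more was 102; it was 326 with a mean of at least 1 CPM, 465 without a filter, 44 with 10 CPM required in all 3 libraries and between 17 and 86 with 1 library left out. The edgeR calls depended on the processing: library 1 had 1 call, and 141 with RLE scaling, 520 without a filter, 394 with the library tested as its own group in the filter, 0 with the GC and length trend removed and 194 with DESeq2. Library 2 had 0 calls, 325 without a filter and 23 with DESeq2; library 3 had 0, and 1 with DESeq2. The cause was not tested. The own-group filter and the 10 CPM limit in all 3 libraries were chosen after seeing the data. Leaving out a library leaves 1 against 1, which gives no test. Of the 64 lists, all had a count at 10 CPM or more within 1.5 times under TMM scaling, 53 at 5 CPM and 47 at 20 CPM. Of the 15 highest genes by CPM, 11 were also among the 15 highest of all genes by CPM per kilobase. No paired analysis was possible because only 1 group was used. Depth limits the lowest genes: 3 reads are worth 0.195 to 0.238 CPM.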

Other observations

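Long non-coding RNAs were led by LINC01287 at 324, 283 and 303 CPM, NEAT1, the scaffold of paraspeckles, at 335, 242 and 312 CPM, and NORAD, which binds Pumilio proteins, at 333, 226 and 219.6 CPM. MALAT1 was at 264, 204 and 212 CPM. Host genes of small nucleolar RNAs were frequent among the 15 highest, with SNHG29, SNHG14, GAS5, SNHG5, SNHG1 and SNHG3. MEG3, an imprinted RNA, had the widest range of these 15, at 105, 51.6 and 70.8 CPM.

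Of 23 cholesterol synthesis and uptake genes, 20 were at 10 CPM or more in all 3 libraries. CYP51A1, a demethylase of that pathway, was at 0, 0.0756 and 0.260 CPM, with 83.2% of its exonic bases shared with another annotated gene. EEF1G, a subunit of the elongation factor complex that most cells express, was listed at 0 in all 3 libraries, with 99.9% of its exonic bases shared in the same way. Of 1112 genes in the lists, 19 share more than 50% of their exonic bases with another gene. In the poly(A) RNA, 5 of 10 replication-dependent histone genes, whose mRNAs mostly lack a poly(A) tail, were at 10 CPM or more, with H2BC12 at 74.8, 85.3 and 95.6 CPM.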
